A study of Arabidopsis thaliana with 27 samples.

Results

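Pierced Arabidopsis leaves that received oral secretions of *Pieris brassicae* larvae (Pb OS) were set against pierced leaves that received water (W), 24 h after the treatment. The comparison rested on 8 of the 27 libraries of the series, 4 with Pb OS and 4 with W, and took in all 18899 genes of the deposited table. All plants were Col-0 (wild type) and 5 weeks old. Holes of 1 mm were pierced in 3 leaves per plant, 4 holes per leaf, each hole took 2 µl of liquid, and discs of 1 cm around the wounds were collected. The remaining libraries were W and Pb OS at 3 h, oral secretions of *Spodoptera littoralis* (Sl OS) at 3 h and 24 h, and unwounded leaves collected with the 3 h samples, so that no unwounded leaf was taken at 24 h. The question was which genes still differed a day after the wound because secretion had been added to it. Pb OS came from larvae reared on *Brassica oleracea* and kept on Arabidopsis for the last day, whereas *S. littoralis* larvae fed on Arabidopsis from hatching. Each replicate held 2 plants per treatment. The source of the secretions and the number of plants limit the treatment as a model of feeding.

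Oral secretions are the fluid that a caterpillar releases from its mouth while it chews. They carry larval enzymes, elicitors and digested leaf, which plants perceive in addition to the mechanical injury. The leaf response to chewing runs mainly through jasmonates, which are made from chloroplast lipids and release MYC factors and, together with ethylene, ERF factors from repression. The MYC factors act on genes such as VSP2 and the ERF factors on defensin genes such as PDF1.2. In parallel, wound edges are sealed over the following day by suberin, a polyester of long fatty acids, and by lignin, which laccases and peroxidases polymerise.

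Libraries held 27.7 to 30.7 M reads on genes with Pb OS and 27.6 to 31.3 M with W. A single read was worth 0.030 to 0.0398 normalised CPM (counts scaled to the library size), so genes far below 1 CPM rested on a handful of reads. Replicates 1 and 2 and replicates 3 and 4 came from plants that overlapped in the growth room. After the authors' batch correction over both times, these 2 sets of plants still differed at 24 h by a median of 0.23 log2 units per gene across treatments. Each set held the same number of Pb OS and W libraries, and the set was kept as a block. Mesophyll marker genes stood at similar levels in both groups, for example RBCS1A with 12030 CPM under Pb OS and 11560 CPM under W. The meristem markers STM and WUS were not among the measured genes. Over the 17 measured cell type markers of 22, 0 passed the limma test, 5 were at an unadjusted p under 0.05, and the median log2 difference was -0.003.

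Few genes differed. At an adjusted p (adjP) under 0.05, 27 genes (0.143% of 18899) were higher with Pb OS and 6 (0.0317%) were lower, of which 22 and 5 were past 1 log2 unit. In all, 1531 genes (8.1%) had an unadjusted p under 0.05, 760 of them higher and 771 lower. The typical standard error of a difference was 0.15 log2 units. All 33 genes differed in the same direction in both sets of plants, with a size over 1 log2 unit in each set for 25 of them. In 25 of the 33 genes the 4 Pb OS libraries and the 4 W libraries did not overlap, as held for 2.48% of all genes. In all 33 they did not overlap within either set, as held for 9.22% of all genes, although the calls themselves select for such separation.

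**Figure D1:**
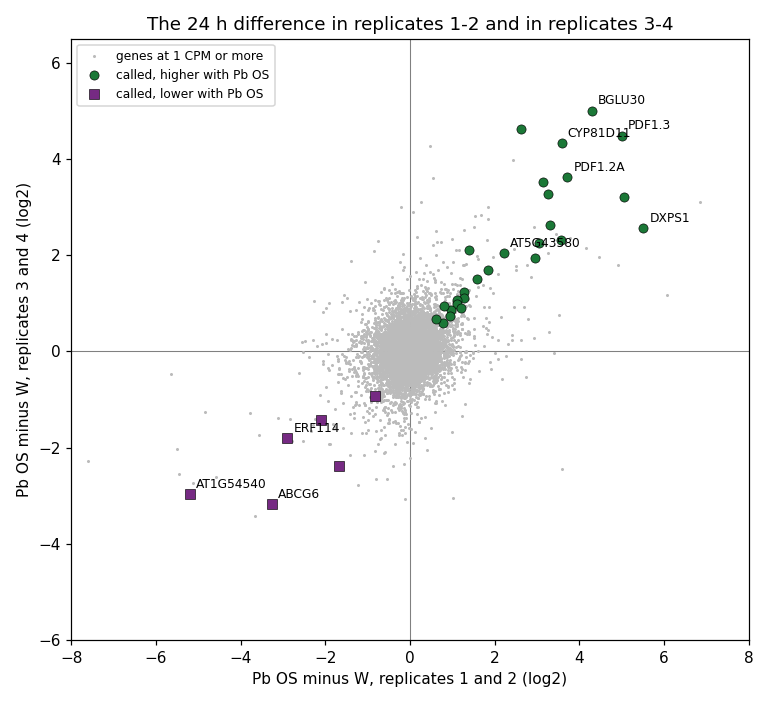
Difference between Pb OS and W at 24 h (log2) in replicates 1 and 2 (x axis) and in replicates 3 and 4 (y axis), with 1 grey point for each of 17039 genes at a mean of 1 CPM or more, green circles for the 27 genes higher with Pb OS and purple squares for the 6 lower. All 33 coloured points lie towards the upper right or the lower left of the plot, while most grey points cloud around 0.

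Over the whole table the 2 sets of plants had little in common. Across the 17039 genes at 1 CPM or more, the difference in replicates 1 and 2 and that in replicates 3 and 4 had a Pearson correlation of 0.313 and a Spearman correlation of 0.141, and 54.3% of genes had the same sign. The 2 sets share no library, and genes are not independent replicates. Taken alone, replicates 1 and 2 called 2 genes higher and 6 lower, and replicates 3 and 4 called 0 genes, with 639 and 636 at an unadjusted p under 0.05. With each replicate number as its own block, 20 genes were higher and 2 lower, and 14 and 1 of these were among the 33. Leaving out any single one of the 8 libraries gave 4 to 14 genes higher and 0 to 13 lower, with the fewest higher genes when Pb OS replicate 3 was absent and the most lower genes when Pb OS replicate 4 was absent. CYP81D11 and AT5G43580 were the 2 genes that passed under every setting tried on all 8 libraries and without each library in turn. PDF1.2A and DJ1A passed without each library in turn but not under every setting.

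CYP81D11 (AT3G28740) had the lowest adjP of all genes. It encodes a cytochrome P450 that cis-jasmone and foreign compounds induce. It stood at 3.17, 4.25, 3.10 and 4.68 CPM in the Pb OS libraries 1 to 4, against 0.318, 0.236, 0.180 and 0.133 CPM in the W libraries. All Pb OS libraries were several times above the highest W library, in both sets of plants. The log2 difference was 3.96 (SE 0.21, adjP 8.5e-05), a 15.6-fold higher level. Unwounded leaves gave no CYP81D11 read in 4 libraries, which allows a mean of up to 0.0299 CPM.

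The genes GSTU1 and GSTU3, for glutathione transferases of the tau class, which couple glutathione to reactive compounds, also rose. GSTU1 stood at 4.01, 3.3, 3.24 and 3.39 CPM with Pb OS, against 0.278, 0.590, 0.481 and 0.928 CPM with W (log2 difference 2.65, SE 0.34, adjP 0.029). GSTU3 had 36 reads over the Pb OS libraries, at 0.244 to 0.414 CPM, and 0 reads over the W libraries, which makes it at least 12.2-fold higher when the W total is set to 3 reads (adjP 0.029). With each replicate number as the block, GSTU1 (adjP 0.0544) and GSTU3 (adjP 0.0554) narrowly lost their calls. Both lie in a run of 7 GSTU genes on chromosome 2, where GSTU2 had a log2 difference of 1.78 (adjP 0.17), GSTU4 of 1.01 (adjP 0.55), GSTU6 of 1.07 (adjP 0.37), GSTU7 of 0.50 (adjP 0.39) and GSTU5, the most abundant, of -0.07 (adjP 0.97). This run was looked at after its values were seen, and close copies of this kind can share reads. Of 25 measured genes of a detoxification list of 27, 3 were higher, 0 were lower and 23 had a positive difference, with a median of 0.50. Over all 18899 genes, 27 were higher, 9363 had a positive difference and the median was -0.002. Members that did not pass included GSTU24, a transferase induced by xenobiotics, at 1.69 CPM with Pb OS and 0.421 CPM with W (log2 difference 2.26, adjP 0.29), and the glycosyltransferase gene UGT74E2 (2.295, adjP 0.42).

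A pair of further genes that handle reactive or foreign compounds passed at smaller differences. DJ1A, which has glyoxalase activity, stood at 48.7, 44.3, 97.7 and 107.5 CPM with Pb OS, against 21.2, 19.4, 61.2 and 49.5 CPM with W. The groups overlapped over all libraries because replicates 3 and 4 were higher in both, yet within each set of plants every Pb OS library was above every W library (log2 difference 1.05, SE 0.11, adjP 0.0085). DTX19, a multidrug and toxin efflux carrier that protects roots, reached 9.19 ± 2.66 CPM with Pb OS and 5.02 ± 0.99 CPM with W (SD, n = 4 each; log2 difference 0.84, adjP 0.046, or 0.054 with each replicate number as the block).

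The 250 bases before the annotated start are shown for 6 genes. They were taken from the named genes at 1 CPM or more in either group and those named in earlier results. Among these, the 6 had the largest differences of those that held a searched motif. Of the 6, 4 were higher with Pb OS and 2 had negative differences (of which LAC5 did not pass). Defence factors are known to act through elements of the kinds searched, but whether any acts in these windows was not tested. The windows were read from the TAIR10.1 assembly with RefSeq gene starts. Each runs 5′ to 3′ along the gene's strand and ends at the base before the start, and capitals mark the motifs searched on both strands.
CYP81D11, chr3:10790554-10790803, minus strand: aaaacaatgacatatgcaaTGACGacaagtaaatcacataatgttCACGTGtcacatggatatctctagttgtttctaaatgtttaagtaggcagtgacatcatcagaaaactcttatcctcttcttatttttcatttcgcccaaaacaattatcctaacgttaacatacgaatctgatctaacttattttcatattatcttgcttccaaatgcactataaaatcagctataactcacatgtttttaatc
BGLU30, chr3:22216290-22216539, plus strand: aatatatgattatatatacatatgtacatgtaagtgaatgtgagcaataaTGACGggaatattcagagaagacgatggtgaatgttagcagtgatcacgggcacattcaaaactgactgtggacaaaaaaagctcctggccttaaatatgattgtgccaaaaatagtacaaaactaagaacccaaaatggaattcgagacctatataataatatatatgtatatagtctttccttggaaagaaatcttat
PDF1.3, chr2:11087030-11087279, plus strand: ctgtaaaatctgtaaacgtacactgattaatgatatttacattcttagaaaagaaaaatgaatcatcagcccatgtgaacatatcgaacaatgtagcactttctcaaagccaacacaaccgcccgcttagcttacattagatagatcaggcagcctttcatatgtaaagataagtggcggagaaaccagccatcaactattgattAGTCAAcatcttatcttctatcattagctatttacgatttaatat
DXPS1, chr3:7576722-7576971, minus strand: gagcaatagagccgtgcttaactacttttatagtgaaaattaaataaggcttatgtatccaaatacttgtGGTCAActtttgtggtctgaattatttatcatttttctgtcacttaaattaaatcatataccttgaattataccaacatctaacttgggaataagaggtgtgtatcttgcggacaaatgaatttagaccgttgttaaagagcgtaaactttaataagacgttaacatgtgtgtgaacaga
LAC5, chr2:16860780-16861029, minus strand: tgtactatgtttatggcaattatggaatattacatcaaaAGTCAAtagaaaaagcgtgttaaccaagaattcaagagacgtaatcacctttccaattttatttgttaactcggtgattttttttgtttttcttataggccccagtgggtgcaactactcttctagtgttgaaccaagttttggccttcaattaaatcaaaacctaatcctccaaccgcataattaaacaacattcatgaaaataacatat
AT1G54540, chr1:20368512-20368761, minus strand: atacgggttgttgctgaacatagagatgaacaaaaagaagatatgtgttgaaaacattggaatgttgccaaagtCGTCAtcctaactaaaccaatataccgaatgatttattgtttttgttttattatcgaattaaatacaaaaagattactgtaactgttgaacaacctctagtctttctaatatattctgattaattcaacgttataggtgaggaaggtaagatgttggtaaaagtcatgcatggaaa

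The motifs were TGACG (bound by TGA factors), CACGTG (the G-box, bound by MYC factors), GCCGCC (bound by ERF factors) and TTGACC or TTGACT (bound by WRKY factors). The CYP81D11 window held TGACG 231 bases and CACGTG 205 bases before the start, and TGACG stood 200 bases before the BGLU30 start. Among the 27 genes higher with Pb OS, TGACG was in 10 windows, TTGACC or TTGACT in 12, CACGTG in 1 and GCCGCC in 1, the last that of PDF1.2A. Among the 6 lower genes the counts were 2, 4, 0 and 0. Over the windows of 18833 measured genes, TGACG was in 19.4%, TTGACC or TTGACT in 28.3%, CACGTG in 7.5% and GCCGCC in 2.0%. A match of such short letters is a description of the sequence and does not mark a binding site.

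Plant defensins, small antifungal proteins that jasmonate and ethylene raise together, included the largest rises. PDF1.2A (AT5G44420) stood at 114.9, 127.5, 11.2 and 13.3 CPM with Pb OS, against 8.35, 10.11, 1.05 and 0.861 CPM with W. Replicates 1 and 2 stood far above replicates 3 and 4 in both groups, whereas the difference between treatments was 3.72 log2 units in replicates 1 and 2 and 3.63 in replicates 3 and 4 (SE over both 0.30, adjP 0.0026). PDF1.3 (AT2G26010) stood at 6.0, 6.08, 0.862 and 0.643 CPM with Pb OS, against 0.0795, 0.275, 0 and 0 CPM with W (log2 difference 4.75, SE 0.52, adjP 0.013). Without the block by set, adjP was 0.20 for PDF1.2A and 0.14 for PDF1.3. PDF1.2B, which neighbours PDF1.3, had 11.6, 19.9, 0.172 and 0.393 CPM with Pb OS and 0.199, 0.0393, 0 and 0 CPM with W (4.98, adjP 0.14), PDF1.2C had a log2 difference of 3.35 (adjP 0.41) and PDF1.4 of 1.05 (adjP 0.38). The defensins beyond the listed PDF1.2A and PDF1.2B were gathered after values were seen, and reads of these near-identical genes may be split among them.

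Genes that respond to jasmonate mostly had positive differences, but few passed. Of 24 measured members of a list of 25, 3 (PDF1.2A, CLH1 and AT5G05600) passed upwards, 0 passed downwards and 22 were positive in both sets of plants, as were 4870 of all 18899 genes, with a median of 1.101, against -0.002 over all genes. CLH1, a chlorophyllase that methyl jasmonate induces, stood at 287, 447, 183.7 and 197 CPM with Pb OS, against 132, 165, 86.4 and 89.9 CPM with W (log2 difference 1.19, SE 0.16, adjP 0.034). Its mean in unwounded leaves of 3 h, 160.7 ± 82.9 CPM (SD, n = 4), lay between those of W and Pb OS. AT5G05600 (JOX2), an oxygenase that inactivates jasmonic acid by hydroxylation, stood at 90.0, 93.5, 182 and 241 CPM with Pb OS, against 39.2, 36.7, 99.8 and 80.3 CPM with W (1.25, SE 0.19, adjP 0.046). Its call was lost with each replicate number as the block (adjP 0.10). Larger differences with wider spread were seen for VSP2, an acid phosphatase against insects, at 20.2, 37.0, 52.1 and 106.8 CPM with Pb OS and 1.51, 1.49, 21.8 and 13.1 CPM with W (3.15, SE 0.59, adjP 0.095), and for the ERF factor gene ORA59 at 2.55 CPM with Pb OS and 0.386 CPM with W (3.21, adjP 0.33). The JAZ repressor genes and MYC2 had differences of 0.41 to 1.69 and did not pass.

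NATA1 (AT2G39030), which makes N-delta-acetylornithine, a compound that methyl jasmonate raises, was among the most abundant of the called genes. It stood at 181, 109.6, 160.1 and 200 CPM with Pb OS, against 37.7, 59.5, 60.4 and 65.0 CPM with W (log2 difference 1.54, SE 0.19, adjP 0.022, or 0.058 with each replicate number as the block). Unwounded leaves averaged 6.56 ± 8.88 CPM (SD, n = 4).

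Jasmonate synthesis moved little beside these outputs. Of the 15 genes of this list, LOX2 alone passed. LOX2 (AT3G45140), the chloroplast lipoxygenase that supplies wound jasmonate, stood at 2170, 2212, 3658 and 4138 CPM with Pb OS, against 1256, 1312, 2621 and 2523 CPM with W (log2 difference 0.68, SE 0.11, adjP 0.048, or 0.099 with each replicate number as the block). Unwounded leaves averaged 3041 ± 1804 CPM (SD, n = 4). The list median was 0.16, and AOS, the enzyme after the lipoxygenases, stood at 672.5 CPM with Pb OS and 625 CPM with W (0.10, adjP 0.91).

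Protease inhibitors, which impair digestion in the larval gut, supplied 2 of the calls. AT5G43580 (UPI), a potato inhibitor I type serine protease inhibitor with a role in resistance to herbivores and necrotrophic fungi, stood at 4.92, 3.08, 4.83 and 5.00 CPM with Pb OS, against 0.915, 0.708, 1.08 and 1.26 CPM with W. The groups were well apart (log2 difference 2.13, SE 0.19, adjP 0.0046), and unwounded leaves gave 0 reads in 4 libraries. AT1G73325, a Kunitz-type inhibitor gene, stood at 4.64, 8.92, 2.93 and 2.5 CPM with Pb OS, against 1.43, 2.2, 0.721 and 0.928 CPM with W (1.76, SE 0.26, adjP 0.045). Of the 11 measured genes of this list of 14, 2 passed upwards, 0 downwards, and the median was 0.53. Over all 18899 genes, 27 passed upwards and the median was -0.002. KTI1, another Kunitz-type inhibitor, stood at 7.22, 5.96, 5.96 and 5.64 CPM with Pb OS, against 0.835, 0.511, 1.74 and 1.09 CPM with W, and did not pass (2.65, SE 0.55, adjP 0.14). TI1 had a difference of 1.00 (adjP 0.10) and TI2 of 1.04 (adjP 0.28), while the cystatin gene CYS1 had -0.19 (adjP 0.82).

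Other genes higher with Pb OS stood low. BGLU30, a beta-glucosidase gene that darkness and sugar starvation induce, stood at 1.43, 1.71, 2.52 and 1.86 CPM with Pb OS, against 0, 0.157, 0 and 0.0994 CPM with W (log2 difference 4.65, SE 0.54, adjP 0.015). At 24 h BGLU30 and PDF1.3 reached 1 CPM with Pb OS and Sl OS but not with W, nor did they in unwounded leaves. Genes entered the table at 1 CPM in at least 1 library, and entry through the secretion libraries favours a positive difference. DXPS1, annotated as a deoxyxylulose phosphate synthase, stood at 2.72, 1.90, 2.59 and 6.04 CPM with Pb OS, against 0, 0.0393, 0.511 and 0.795 CPM with W (4.04, SE 0.62, adjP 0.046, or 0.11 with each replicate number as the block). MIOX2, a myo-inositol oxygenase gene, averaged 1.05 ± 0.83 CPM with Pb OS and 0.0746 ± 0.0525 CPM with W (3.26, adjP 0.046, or 0.11 with that block). Its mean in unwounded leaves of 3 h was higher than both, at 3.17 ± 5.13 CPM, with replicate 2 at 10.84 CPM. AT1G54020, of the GDSL lipase family, averaged 1.16 ± 0.96 CPM with Pb OS and 0.155 ± 0.20 CPM with W (2.97, adjP 0.035).

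Of the genes with hardly a read under W, GAT1_2.1, a putative glutamine amidotransferase that nitrogen regulates, had 59 reads over the Pb OS libraries and 0 over the W libraries, at least 20.02-fold higher with the W total set to 3 reads (adjP 0.046, or 0.098 with each replicate number as the block). AT4G28040 (UMAMIT33), a transporter gene, had 108 reads with Pb OS and 1 with W, a ratio of 110 with a 95% exact counting interval of 19.3 to 4383 (adjP 0.015). LECRK52, a lectin receptor kinase gene, had 38 reads with Pb OS and 1 with W (ratio 38.7, 6.54 to 1568, adjP 0.035), and AT2G14290, a gene with a DUF295 domain, had 24 and 2 reads (12.2, 3.03 to 106.7, adjP 0.043). These intervals cover counting error only, and the LECRK52 and AT2G14290 calls were lost with that block (adjP 0.052 and 0.061).

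More abundant genes were higher than with W by smaller factors. PGIP2, an inhibitor of fungal polygalacturonases that methyl jasmonate induces, stood at 62.3, 58.1, 72.2 and 78.4 CPM with Pb OS, against 28.2, 27.6, 34.6 and 37.5 CPM with W (log2 difference 1.09, SE 0.13, adjP 0.015). Its mean in unwounded leaves of 3 h, 45.9 ± 25.7 CPM (SD, n = 4), lay between those of W and Pb OS. AT3G61490, of the pectin lyase-like family, averaged 16.0 ± 3.19 CPM with Pb OS and 7.66 ± 1.11 CPM with W (1.05, adjP 0.0085), and AT1G14890, of the invertase and pectin methylesterase inhibitor family, averaged 8.04 ± 1.01 and 4.39 ± 0.74 CPM (0.88, adjP 0.029). The transcription factor gene BHLH167 averaged 6.42 ± 1.78 CPM with Pb OS and 1.94 ± 0.78 CPM with W (log2 difference 1.745, adjP 0.035), and ARF5, the auxin response factor MONOPTEROS of vascular development, 16.1 ± 2.16 and 10.2 ± 1.4 CPM (0.65, adjP 0.045). With each replicate number as the block adjP was 0.077 for BHLH167 and 0.10 for ARF5. The last of the 27 was AT4G26255, a non-coding RNA gene, at 2.15 ± 0.59 CPM with Pb OS and 1.13 ± 0.33 CPM with W (0.91, adjP 0.045).

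**Figure D2:**
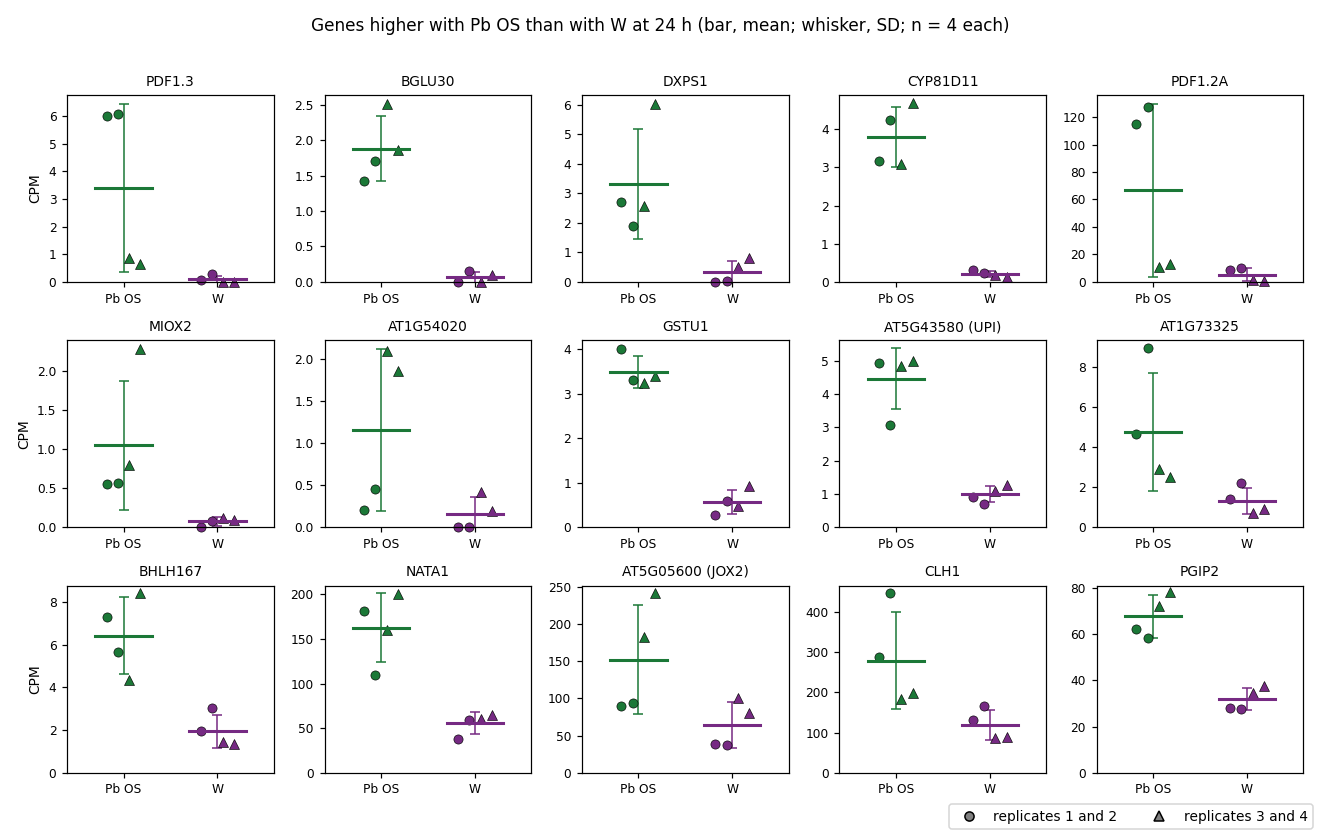
CPM at 24 h (linear y axis) of the 15 genes with the largest rises among those that passed and reached 1 CPM in either group, Pb OS left and W right in each panel, with circles for replicates 1 and 2, triangles for replicates 3 and 4, a bar for the mean and a whisker for the SD (n = 4 each). PDF1.2A and PDF1.3 split by set of plants, while CYP81D11, at 3.10 to 4.68 CPM with Pb OS and 0.133 to 0.318 CPM with W, does not.

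Of the 6 genes lower with Pb OS, 4 (AT1G54540, ABCG6, ERF114 and AT3G25640) averaged no more than 0.242 CPM in unwounded leaves, which were sampled at 3 h, and stood well above that in W at 24 h. AT1G54540, of the hydroxyproline-rich LEA family, stood at 0, 0, 0.103 and 0.536 CPM with Pb OS, against 1.71, 0.905, 2.37 and 1.96 CPM with W (log2 difference -4.08, SE 0.62, adjP 0.046), with 0 reads in the 4 unwounded libraries. ABCG6 (AT5G13580), a transporter needed for the suberin barrier of roots and seed coats, had 8 reads with Pb OS, at 0, 0, 0.0689 and 0.214 CPM, against 115 reads with W, at 0.318, 0.275, 2.16 and 0.928 CPM (-3.22, SE 0.45, adjP 0.035). At 24 h AT1G54540 and ABCG6 reached 1 CPM with W but not with Pb OS or Sl OS. Genes entered the table at 1 CPM in at least 1 library, and entry through W favours a negative difference. ERF114 (AT5G61890), an ethylene response factor of the ERF group that acts in regeneration after wounding, stood at 1.19, 1.06, 2.31 and 4.22 CPM with Pb OS, against 8.59, 8.61, 10.9 and 11.1 CPM with W (-2.35, SE 0.36, adjP 0.046). In all 3 genes every Pb OS library was below every W library, and Pb OS replicate 4 was the highest of its group.

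The Rab GTPase gene RABA1D was the smallest of the near misses, at 5.23 ± 1.56 CPM with Pb OS and 7.72 ± 1.29 CPM with W (log2 difference -0.59, adjP 0.079). The remaining lower genes were AT3G25640, a MIZU-KUSSEI-like gene, at 0.837, 0.570, 1.41 and 1.79 CPM with Pb OS against 3.42, 2.75, 4.75 and 3.94 CPM with W (log2 difference -1.76, SE 0.26, adjP 0.045), and AT3G52748, a non-coding RNA gene, at 0.475 ± 0.45 CPM with Pb OS and 1.74 ± 1.22 CPM with W (-2.03, adjP 0.035). MES18, a methyl esterase active on methyl indole-3-acetic acid in vitro, averaged 12.9 ± 4.65 CPM with Pb OS and 23.8 ± 8.54 CPM with W (-0.88, adjP 0.035). With each replicate number as the block, AT3G52748 alone of the 6 passed (adjP 0.038), and adjP of the other 5 ran from 0.058 to 0.10. Without that block or the block by set, all 6 missed the threshold (adjP 0.050 to 0.82).

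Suberin genes were below W throughout, although ABCG6 was the only one that passed. All 13 measured members of a list of 25 had negative differences in both sets of plants, as had 5363 of all 18899 genes. Of the 13, 11 were at an unadjusted p under 0.05, and the median was -2.90. Genes entered the table at 1 CPM in at least 1 library. MYB41, for example, reached 1 CPM in W but not with Pb OS or Sl OS at 24 h. Entry through a high W level favours a negative difference, so the shared sign is partly set in advance. LTPG20 (AT3G22620), a lipid transfer protein gene, stood at 0.523, 0.380, 1.1 and 11.4 CPM with Pb OS, against 18.8, 15.1, 25.0 and 22.7 CPM with W (log2 difference -3.93, SE 0.94, adjP 0.21). RWP1, the feruloyl transferase of suberin, stood at 0, 0.684, 1.17 and 4.22 CPM with Pb OS, against 8.67, 5.82, 11.1 and 7.62 CPM with W (-3.76, SE 1.00, adjP 0.30). Pb OS replicate 4 was closest to W in both genes. MYB41, which drives suberin synthesis, averaged 0.125 ± 0.23 CPM with Pb OS and 1.15 ± 0.62 CPM with W (-3.69, adjP 0.079), LTPG15 (AT2G48130) averaged 0.141 ± 0.17 and 1.06 ± 0.27 CPM (-3.38, adjP 0.060), and ABCG1 1.89 ± 1.58 and 7.45 ± 2.40 CPM (-2.20, adjP 0.073). AT3G50400, of the GDSL lipase family, averaged 0.160 ± 0.26 and 1.42 ± 1.00 CPM (-3.54, adjP 0.076), and AT2G41810, a DUF642 cell wall protein gene, 0.608 ± 0.79 and 5.23 ± 2.38 CPM (-3.54, adjP 0.056), with Pb OS replicate 4 the highest of its group for both. Most of the measured suberin members are among 24 genes that the study picked at 24 h on these same libraries, as are AT3G50400 and AT2G41810. These members are RWP1, FAR5, ABCG1, ABCG6, ABCG16, MYB41, LTPG15, LTPG20 and GPAT1. The shared direction of the 24 (24 of 24 negative, 3 passing, median -2.67) is therefore not independent evidence, nor is that of the suberin list. The suberin members not picked there had differences of -0.84 (FAR1), -0.40 (KCS2), -0.24 (KCS20) and -1.92 (GPAT7), and none passed. At 24 h the study marked only LAC5 and MYB41 as significantly suppressed by Pb OS, and neither passed here. The 3 that passed here, ERF114, ABCG6 and AT3G25640, were marked there for Sl OS only.

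Lignin genes went both ways. The laccase gene LAC5 stood at 0, 0.0760, 0.310 and 1.18 CPM with Pb OS, against 2.78, 2.60, 4.57 and 3.05 CPM with W (log2 difference -3.999, SE 0.65, adjP 0.056), and the peroxidase gene PRX52 at 8.90, 5.54, 7.75 and 16.0 CPM against 30.9, 18.6, 36.3 and 30.2 CPM (-1.67, SE 0.37, adjP 0.17). LAC11, a laccase of vascular lignin, stood instead at 21.2, 20.9, 7.93 and 19.1 CPM with Pb OS, against 9.03, 6.96, 2.31 and 11 CPM with W (1.34, adjP 0.48), and LAC17 and LAC4 had differences of 0.94 and 0.75 (adjP 0.59 and 0.61). Over the 11 measured genes 0 passed the limma test, 7 were at an unadjusted p under 0.05 and the median was -0.50. The xylem markers moved with these vascular laccases without passing, with XCP1 at 17.6 to 28.1 CPM with Pb OS and 4.87 to 16.2 CPM with W (1.14, adjP 0.31), XCP2 at 0.65 and IRX3 at 0.515, and W replicate 3 was the lowest of its group for all 3 markers. Their part in the laccase values was not tested, and in a bulk disc more xylem cells and more RNA per cell cannot be told apart. In a list of 15 measured regeneration genes, ERF114 passed downwards, 10 were negative (as were 9536 of all 18899 genes) and the median was -0.50. GASA5, of a family of small cysteine-rich peptides, was at -1.93 (adjP 0.14) and the cytokinin response regulator ARR16 at -1.78 (adjP 0.24).

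**Figure D3:**
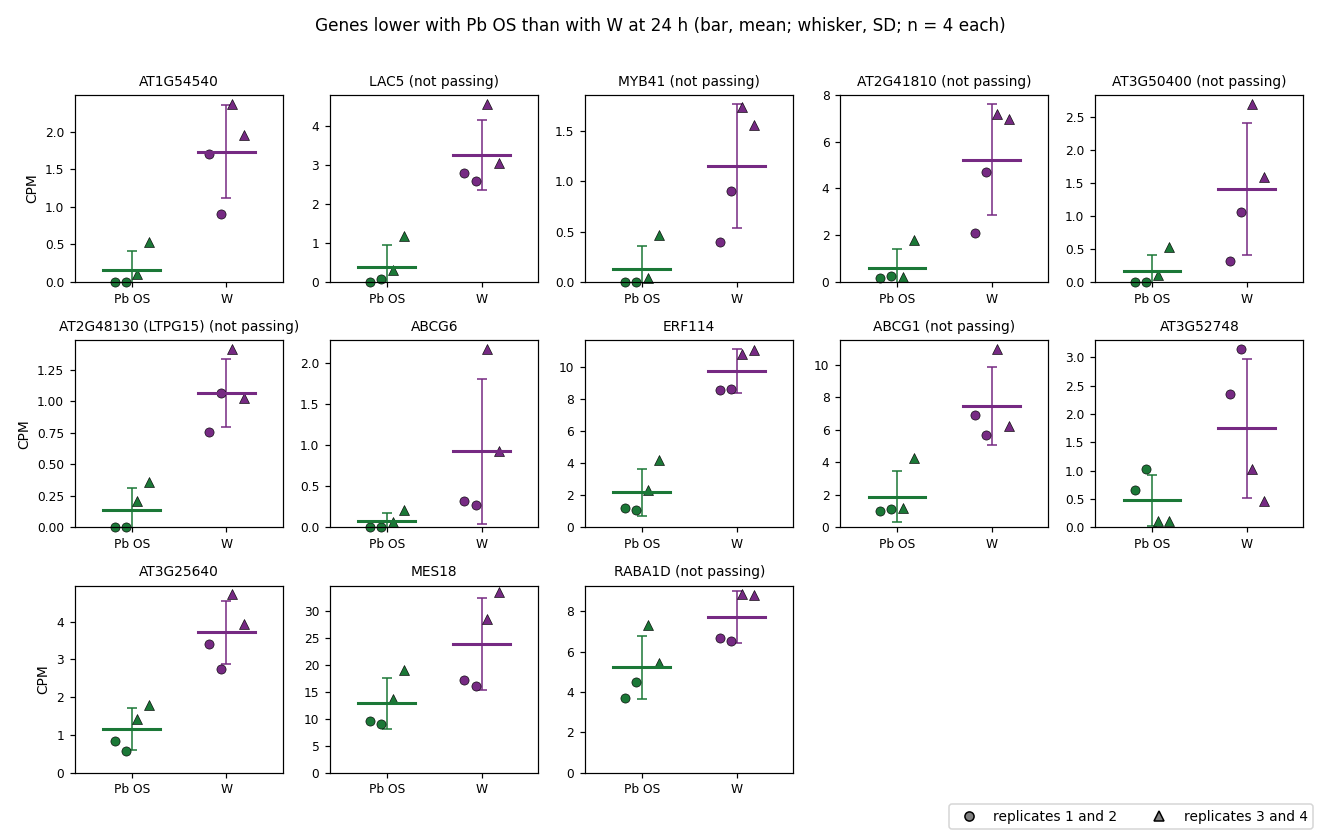
CPM at 24 h (linear y axis) of 13 genes lower with Pb OS, Pb OS left and W right in each panel, with circles for replicates 1 and 2, triangles for replicates 3 and 4, a bar for the mean and a whisker for the SD (n = 4 each). The 7 panels marked as not passing missed adjP 0.05, and in most panels the highest Pb OS point is replicate 4, as for LAC5 at 1.18 CPM.

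A list of senescence and cell death genes had no call. Of its 19 measured members 0 passed the limma test in either direction, 5 were at an unadjusted p under 0.05 and the median was 0.28. CYP76C2, a cytochrome P450 gene of dying leaf tissue, stood at 3.42, 2.09, 1.93 and 5.72 CPM with Pb OS, against 0.199, 0.511, 0.301 and 0.894 CPM with W. The groups did not overlap, and the gene missed the threshold (log2 difference 2.76, SE 0.53, adjP 0.0998). ENDO2, an endonuclease of RNA and single-stranded DNA, stood at 6.0, 2.35, 4.14 and 4.29 CPM with Pb OS, against 1.11, 1.298, 1.47 and 1.86 CPM with W, likewise without overlap (1.47, SE 0.33, adjP 0.17). The ribonuclease gene RNS1 stood at 13.8 to 20.9 CPM with Pb OS and 5.499 to 6.999 CPM with W (1.38, adjP 0.076), and the sucrose exporter gene SWEET15 had a difference of 2.21 (adjP 0.076).

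The other lists had no call. Aliphatic glucosinolate genes, which make the methionine-derived mustard oil precursors, were all negative (22 of 22, 0 passing in limma, 2 at an unadjusted p under 0.05), but by little, with a median of -0.29 and with 10 negative in both sets of plants. Of all 18899 genes, 9536 had a negative difference, 5363 of them in both sets, and 9363 a positive one. MAM3, which elongates methionine chains, stood at 30.0 CPM with Pb OS and 65.3 CPM with W (log2 difference -0.997, adjP 0.62), and MYB28, the main regulator, at 79.8 and 130.7 CPM (-0.68, adjP 0.57). Light harvesting genes (17, median 0.08), salicylate genes (15, 0.09), indole glucosinolate genes (18, 0.04), cell cycle genes (15, 0.20), clock genes (11, -0.09), flavonoid and anthocyanin genes (12, -0.17) and abscisic acid and dehydrin genes (19, -0.22) had no call. In the cuticle list, again with no call, the wax synthesis gene WSD1 (-2.11, adjP 0.54) and LTP2 (-2.66, adjP 0.095) lay far below the list median of -0.01. In the PR and chitin response list (20 measured, no call, median -0.15) HEL, a chitin-binding protein of the ethylene branch, stood at 208, 198, 111.9 and 108.2 CPM with Pb OS, against 59.97, 38.8, 28.7 and 44.7 CPM with W (1.85, SE 0.30, adjP 0.056). PR1, the salicylate marker, stood at 16.9 and 57.3 CPM with a standard error of 1.32 (-0.22, adjP 0.98). All 5 measured camalexin genes had positive differences with a median of 0.62, 0 passed in limma, 2 were at an unadjusted p under 0.05, and the last synthesis gene PAD3 had 1.603 (adjP 0.19).

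**Figure D4:**
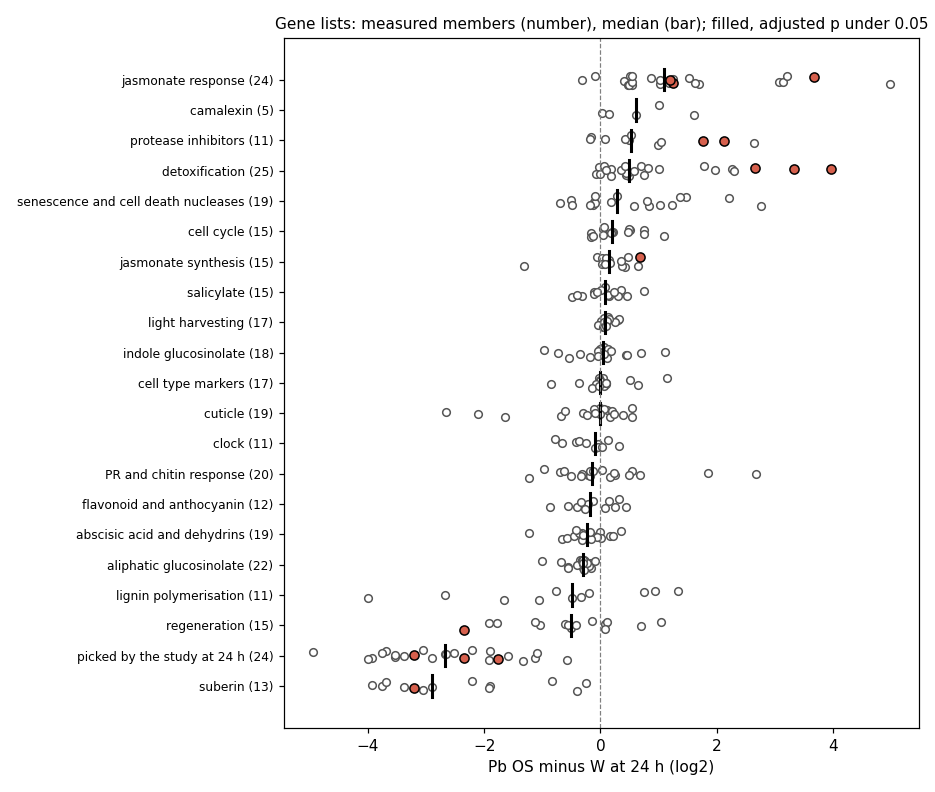
Log2 difference between Pb OS and W at 24 h (x axis) for every measured member of the gene lists (rows, number of members in brackets), with a black bar at each list's median, a dashed line at the median of all genes (-0.002) and filled points for genes with adjP under 0.05. The suberin members lie between -3.93 and -0.24 and the jasmonate response members between -0.31 and 4.98.

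Pb OS and Sl OS were compared directly at the same hour. The larvae differed in species and in diet, which cannot be told apart here. In limma 0 genes passed, with 1682 at an unadjusted p under 0.05 and a lowest adjP of 0.15. CYP81D11 had that lowest value. It stood at 3.17 to 4.68 CPM with Pb OS and at 12.6, 17.0, 11.1 and 11.1 CPM with Sl OS, without overlap (log2 difference -1.76, SE 0.21, adjP 0.15), and it passed on a log2(CPM + 1) scale (adjP 0.0047) and with weighted counts of recovered reads (voom, adjP 0.0055), where NIT4, a nitrilase gene, passed as well (-1.01, adjP 0.031). LECRK52 stood at 0.172 to 0.733 CPM with Pb OS and at 0.0330 to 0.0747 CPM with Sl OS (1.91, adjP 0.42). Against the same W libraries, Sl OS raised 136 genes (0.72%) and lowered 69 (0.365%). Since both comparisons use the same W libraries, their likeness was not counted, and the values stand side by side. PDF1.3 differed from W by 4.75 with Pb OS and 5.64 with Sl OS, GSTU1 by 2.65 and 3.53, AT5G43580 by 2.13 and 2.99, NATA1 by 1.54 and 1.33, ABCG6 by -3.22 and -4.09, and AT1G54540 by -4.08 and -5.59.

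The difference between Pb OS and W changed between the times for 2784 genes (14.7%) by an interaction test in limma, and for 10 of the 33 genes called at 24 h. As the 33 were chosen for their difference at 24 h, this share leans towards a larger difference at that time. The labels number the W libraries of 3 h from 1 to 3, which would put number 2 in the first set, whereas the test placed it in the second. With the label numbering 8 of the 10 passed, without BGLU30 (adjP 0.0539) and AT3G52748 (adjP 0.0574). With each replicate number as the block 4 of the 33 passed, which were AT5G43580, AT1G54540, ABCG6 and AT3G25640. Some differences were seen at 24 h and not at 3 h. PDF1.2A differed by 3.67 at 24 h and by 0.04 at 3 h (interaction adjP 0.0062), PDF1.3 by 4.75 and -0.10 (adjP 0.0046), AT5G43580 by 2.13 and 0.21 (adjP 0.00090) and BGLU30 by 4.65 and 0.26 (adjP 0.047). At 3 h PDF1.2A averaged 3.64 CPM with Pb OS and 3.38 CPM with W. The others had hardly a read then, with PDF1.3 at 0.0481 and 0.0359 CPM, AT5G43580 at 0.00776 and 0 CPM and BGLU30 at 0.0160 and 0 CPM. At such levels the prior count sets the 3 h difference, which could not be measured. Among the lower genes, AT1G54540 (adjP 0.0026), ABCG6 (adjP 0.0090), AT3G25640 (adjP 0.026) and AT3G52748 (adjP 0.019) also passed the interaction test. Their differences at 3 h were 1.398, -0.542, 1.112 and 0.378, so all but that of ABCG6 had the opposite sign to 24 h. Those of AT1G54540 and AT3G25640 missed the threshold at 3 h (limma adjP 0.116 and 0.154) but add to the change. AT1G54540 had few reads at 3 h, at 0.1654 CPM with Pb OS and 0 CPM with W. ABCG6 averaged 0.0708 CPM with Pb OS and 0.921 CPM with W at 24 h, and 0 CPM with Pb OS and 0.0241 CPM with W at 3 h.

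Other differences were already present at 3 h. CYP81D11 differed by 3.96 at 24 h and by 3.80 at 3 h (interaction adjP 0.83), when it stood at 19.3 CPM with Pb OS and 1.35 CPM with W. GSTU1 differed by 2.65 and 2.79 (adjP 0.92), NATA1 by 1.54 and 1.81 (adjP 0.79), AT5G05600 by 1.25 and 1.53 (adjP 0.61) and ERF114 by -2.35 and -2.50 (adjP 0.93). A p that misses the threshold does not show that these differences were equal. DJ1A was the one called higher gene whose difference passed the interaction test as smaller at 24 h (1.05) than at 3 h (1.73, adjP 0.046). AT1G73325 differed by 1.76 at 24 h and by -1.69 at 3 h (adjP 0.033), with 5.23 CPM under Pb OS and 20.6 CPM under W at 3 h.

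**Figure D5:**
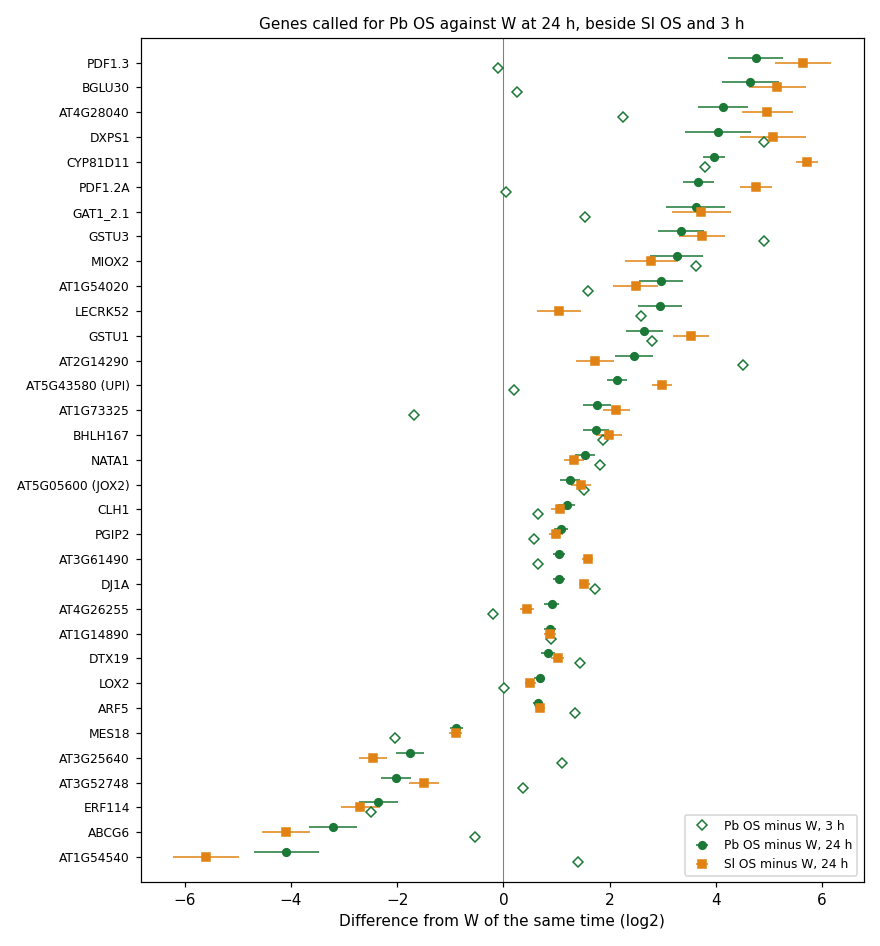
Log2 difference (x axis) for the 33 genes called at 24 h (rows), with green circles for Pb OS minus W at 24 h, orange squares for Sl OS minus W at 24 h (bars, SE) and open green diamonds for Pb OS minus W at 3 h. The diamonds of PDF1.3 (-0.10), PDF1.2A (0.04) and AT5G43580 (0.21) lie near 0, and that of CYP81D11 (3.80) lies beside its 24 h value of 3.96. PDF1.3 and AT5G43580 had hardly a read at 3 h.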

How the data were processed

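RNA-seq of leaf discs gave 1 table of log2 values, which the authors deposited as log2 CPM of TMM-scaled libraries with a prior count of 1 and with batch effects removed. Per the labels and the methods, reads of 150 bp were trimmed with cutadapt 2.5, aligned with STAR 2.5.3a to TAIR10 and counted with HTSeq 0.9.1. The authors kept genes at 1 CPM in at least 1 library and left out 1 W library of 3 h. A second deposited table with the authors' fold changes and p-values was not used.

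The authors' batch shift could be undone, since 1 shift per gene gave whole reads in all 27 libraries for all 18899 genes within 0.02 reads. Levels are these reads in CPM, without the shift, and 0 means no read. Differences and tests use the deposited values. A gene with few reads has a log2 difference that depends on the prior count.

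Differences were fitted with limma 3.58.1 (R 4.3.3) over 12 libraries of 24 h (Pb OS, Sl OS and W), with group means, the set of replicates (1 and 2, or 3 and 4) as a block and Benjamini-Hochberg adjustment over 18899 genes. The change between times was fitted on 27 libraries with a block for set and time, the W 3 h libraries numbered 2 and 3 by the labels both in the second set, against the label of number 2, because the deposited correction balances there. Replicates were independent treatments. After removal of group means, 24 h libraries with the same number correlated at a mean of 0.439, those with another number of the same set at 0.31 and those of the other set at -0.375. Every same-number pair was above 0.1, so values with a block of 4 numbers are given where they change a call. Named genes were up to 15 in each direction by size at 1 CPM or more, filled to 12 by unadjusted p, with 8 genes named in earlier results, list members that passed and the remaining called genes. Other genes were named after their values were seen. The members and lists were chosen with earlier results of these data known. Alternatives were the blocks, the libraries in the fit, a variance trend, log2(CPM + 1), a filter at 1 CPM, voom and leaving out each library. Windows of 250 bases come from the TAIR10.1 assembly, matched by locus.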

Additional observations from a re-analysis of the deposited data

Results flagged for a closer look

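Among 84 groups of 4 libraries examined for the named genes, 6 held a library far from the other 3, near the 1 in 20 that chance gives. The gap to the nearest library was 0.924 of the group's range for AT4G28040 in W replicate 1 (lowest), 0.885 for LECRK52 and 0.919 for AT2G14290 in W replicate 4 (highest), 0.862 for LOX2 in Pb OS replicate 3 (lowest), 0.914 for ARF5 in W replicate 1 (lowest) and 0.895 for MYB41 in Pb OS replicate 4 (highest). These gaps are on the deposited log2 values, which include the authors' batch shift, and those of AT4G28040, LECRK52 and AT2G14290 rest on 0 to 2 reads. The reads without the shift do not show all of them. LOX2 in Pb OS replicate 3 stood at 3658 CPM, above replicates 1 and 2 (2170 and 2212 CPM), so it was not the lowest. AT4G28040 was at 0 CPM in W replicates 3 and 4 as well as in W replicate 1.

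The Pb OS minus W difference at 24 h exceeded that at 3 h, by the interaction test in limma, in PDF1.3 (by 4.85 log2 units), BGLU30 (4.39), PDF1.2A (3.63), AT5G43580 (1.92) and AT1G73325 (3.45). It was below that at 3 h in DJ1A (-0.69), RABA1D (-1.52), AT3G25640 (-2.87), AT3G52748 (-2.40), ABCG1 (-3.05), ABCG6 (-2.67), AT2G48130 (-3.57), AT3G50400 (-5.46), AT2G41810 (-4.67), MYB41 (-3.69), LAC5 (-3.65) and AT1G54540 (-5.48). At 3 h MYB41 averaged 0 CPM with Pb OS and 0 with W, LAC5 0 and 0.012, and AT2G48130 0.0078 and 0. Their 3 h difference could not be measured, nor could that of PDF1.3, BGLU30, AT5G43580 and ABCG6. With each replicate number as the block in limma, interaction adjP was 0.056 for PDF1.3 and BGLU30 and 0.080 for PDF1.2A. It was 0.10 for AT1G73325, 0.32 for DJ1A and 0.18 for AT3G52748.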

How the results depend on the processing

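Across the alternatives 0 named genes changed direction, but most calls depended on the fit. The 27 higher and 6 lower genes became 8 and 0 without a replicate block (500 and 394 at an unadjusted p under 0.05) and 20 and 2 with a replicate block of 4 numbers, which shared 14 and 1 genes with them. With all 27 libraries there were 7 and 4 with a block of 4 numbers and 33 and 18 with a block of set and time. A variance trend gave 44 and 13, log2(CPM + 1) 23 and 18, and voom 16 and 4. Leaving out each library gave 4 to 14 higher and 0 to 13 lower. Fits of 1 set alone, added after the data were seen, gave 2 and 6 in replicates 1 and 2 and 0 and 0 in replicates 3 and 4 (639 and 636 unadjusted). Over the named genes, 381 of the values that called genes took under alternatives missed the threshold and 236 passed it. These counts include the fits that left out a library and those of 1 set alone, which hold fewer libraries.

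Pb OS against Sl OS had 0 calls, with 1 on log2(CPM + 1), 2 in voom and 1 in replicates 1 and 2 alone (CIPK16). The 2784 genes whose difference changed between times became 1293 without a block and 1061 with a replicate block of 4 numbers, and 2268 with the W 3 h libraries set by their label numbers. The causes of these shifts were not tested. Depth limited genes under about 1 CPM, where a few reads and the prior count set the log2 value, and counting intervals cover counting error only.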
